A study of Rattus norvegicus with 13 samples.

Results

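Transcripts of 10 genes of insulin and insulin-like growth factor (IGF) signalling, Insr, Irs1, Irs2, Igf1, Igf1r, Igfbp3, Igfbp4, Igfbp5, Igfbp6 and Igfbp7, were read on arrays of rat left ventricle. They were taken by gene name from the spots that are not controls, which gave 14 probes of the 30367 on the array and 10 of its 26115 gene names. Male rats aged 45 weeks that overexpress ADBR3, the labels' spelling of the β3-adrenergic receptor, supplied 7 arrays of 5 rats, and WT male rats of the same age supplied 6 arrays of 4 rats. Hearts 1 and 2 of each group are repeat labelings of the RNA of 1 rat and were averaged. WT heart 5 and ADBR3 overexpressing heart 4 are repeat hybridizations whose partner the labels do not name, so both stayed out of the comparison. They entered only values within slides, the fits blocked on slide or on scan day, and an alternative that averaged them in. Rats are called by group and heart number. The sources used here do not say how, from which promoter or in which cells the receptor was overexpressed.

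IGF-1 is a secreted growth factor that acts through the IGF-1 receptor, a tyrosine kinase closely related to the insulin receptor. Both receptors phosphorylate insulin receptor substrates, which recruit phosphatidylinositol 3-kinase and activate AKT, a route known in heart for glucose uptake, growth and survival of cardiomyocytes. IGF-binding proteins hold IGF-1 outside cells and set how much of it reaches the receptor.

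The oligonucleotides on the array are 60 bases long, and the stretch of a transcript that each one reads decides what its value stands for. Igf1, Insr, Irs1 and Igfbp5 have a pair of probes each, and bases 1 to 30 of these, 5′ to 3′, are shown because the levels of some pairs were correlated over the rats and those of others were not. Bases 31 to 60 of the Igfbp7 probe are added because they hold AATAAA, the polyadenylation signal, printed in capitals. AATAAA was searched on the probe strand only and occurs in 1 of the 14 probes and in 8.39% of all 30367.
Igf1 A_44_P366723: agcaacctgcaaaacatcggaacacctgcc
Igf1 A_64_P052740: tgaggaggctggagatgtactgtgctccgc
Insr A_64_P085396: atggagaatgtccccttggatcgttcctct
Insr A_64_P118402: atgttacatttttctctggattgatgcttg
Irs1 A_44_P431109: gagtgggaagaatacttaaaacaaggctaa
Irs1 A_64_P149129: gaggatttaagcacctatgccagcatcaac
Igfbp5 A_44_P264240: ttacgatttaaagcacagtagaagggaaag
Igfbp5 A_64_P047478: accccggaaacgtattcctatttgaagcaa
Igfbp7 A_64_P048187: aaacaAATAAAattcttattacaacaggaa

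In the coordinates of the files, which use build rn4, the Igf1 probes lie on the plus strand at chr7:24604715-24604774 (A_44_P366723) and chr7:24587916-24587975 (A_64_P052740), with starts 16799 bases apart. The Insr probes lie on the plus strand at chr12:3086616-3086675 and chr12:3087540-3087599, only 924 bases apart. For Irs1, on the minus strand, they lie at chr9:81585685-81585744 (A_44_P431109) and chr9:81633784-81633843 (A_64_P149129), 48099 bases apart. The Igfbp5 probes, on the minus strand, lie at chr9:72000312-72000371 (A_44_P264240) and chr9:72003659-72003718 (A_64_P047478), 3347 bases apart. The Igfbp7 probe lies on the plus strand at chr14:33069995-33070054. An annotation of rn4 was not used here, so exons and untranslated parts are not named. All 10 symbols stand in the RefSeq gene table of assembly GRCr8, and 13 of the 14 probes carry a RefSeq accession listed there for the same symbol.

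Every level below is log2 of the processed spot signal minus the 75th percentile of its array, which ranged between 760.4 and 908.7 over the 13 arrays. A level of one probe cannot be set against that of another, because probes differ in how they bind. Of all spots, 55.2% to 67.8% were well above background, a flag of the scanner software. Cardiomyocyte markers averaged 6.64 to 6.72 in the ADBR3 overexpressing rats and 6.56 to 6.80 in the WT rats, over 7 of 7 listed genes. The Adrb3 probe was well above background on 1 of 7 ADBR3 overexpressing arrays, heart 6, and on 0 of 6 WT arrays. The labels do not say which sequence was introduced, so that probe need not read it.

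None of the 10 genes passed the test for a difference between ADBR3 overexpressing and WT hearts. All 14 probes passed the filter on dim probes (detection in 4 or more of the 9 rats) and were tested among 17587 probes. After Benjamini-Hochberg adjustment over all of these, 0 of the 14 were past 0.05 by limma, where 0.00569% of all probes tested were (1 probe). At an unadjusted p under 0.05 there were also 0 of 14, beside 9.2% of all probes tested (3.12% higher and 6.08% lower in ADBR3 overexpressing rats). At each of the 14 probes the rats of the groups overlapped, whereas at 3.44% of all probes tested they did not. The differences, ADBR3 overexpressing minus WT, lay between -0.23 and 0.41 with a median of 0.08, and the median over all probes tested was -0.0094. Some genes count with 2 probes in that median, and with 1 probe per gene the median of the 10 genes was 0.0088. In direction, 10 of the 14 were above 0, beside 46.5% of all probes tested. Here too some genes count with 2 probes. With each gene taken by its brightest probe, Irs2, Igfbp5, Igfbp6 and Igfbp7 were below 0 and the other genes above. The smallest adjusted p among the 14 was 0.610.

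**Figure D1:**
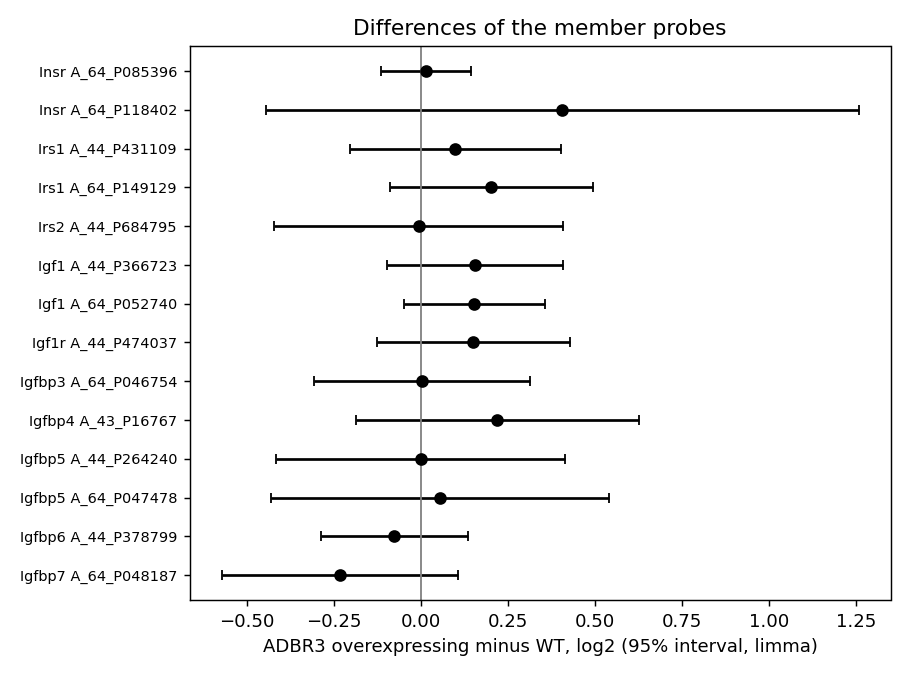
Differences of the 14 probes between ADBR3 overexpressing and WT rats on the log2 scale (horizontal axis), with points for the estimate and bars for the 95% interval from limma. Every interval crosses 0, and the widest, for Insr A_64_P118402, runs from -0.44 to 1.26.

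The ligand gene Igf1 was read by both probes with nearly the same difference. A_44_P366723 measured 2.82, 2.66, 3.01, 2.91 and 2.84 in ADBR3 overexpressing rats 1, 3, 5, 6 and 7, and 2.43, 2.83, 2.93 and 2.58 in WT rats 1, 3, 4 and 6. At A_64_P052740 the same rats gave 1.73, 1.58, 1.73, 1.83 and 1.61, against 1.33, 1.62, 1.74 and 1.47. WT rats 1 and 6 were the lowest of the 9 rats at both probes, while WT rats 3 and 4 lay among the ADBR3 overexpressing rats. The means of A_44_P366723 were 2.85 ± 0.13 (SD, n = 5) in ADBR3 overexpressing and 2.69 ± 0.23 (SD, n = 4) in WT rats, a difference of 0.16 ± 0.11 (SE; limma, Benjamini-Hochberg adjusted p = 0.671). A_64_P052740 differed by 0.15 ± 0.09 (SE; limma, adjusted p = 0.610), with a 95% interval of 0.966-fold to 1.28-fold. Without WT rat 1 the differences were 0.07 at A_44_P366723 and 0.08 at A_64_P052740, and without WT rat 4 they were 0.24 and 0.22. WT rats 1 and 6 were hybridized to slide 1. Within that slide A_44_P366723 differed by 0.39 (1 ADBR3 overexpressing and 2 WT rats), within slide 3 by -0.09 (1 and 1) and within slide 4 by -0.03 (3 and 1). At A_64_P052740 these values were 0.29, -0.13 and -0.07. Blocked on slide, the differences were 0.17 at A_44_P366723 and 0.08 at A_64_P052740 (limma, adjusted p = 0.937 and 0.970). Values within slides include the repeat hybridizations, each taken as the rat whose array it was closest to. WT heart 5, the only WT array of slide 4, was so taken as WT rat 4. That rat is also the only WT rat of slide 3, so slides 3 and 4 share their WT rat.

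Both receptor genes had a probe that missed detection on some arrays. Igf1r, which encodes the IGF-1 receptor, was well above background on 7 of 7 ADBR3 overexpressing and 5 of 6 WT arrays. Its probe A_44_P474037 measured -3.67, -3.76, -3.72, -3.28 and -3.94 in ADBR3 overexpressing rats 1, 3, 5, 6 and 7, against -3.84, -3.69, -3.97 and -3.81 in WT rats 1, 3, 4 and 6. ADBR3 overexpressing rat 6 stood highest, and the other 8 rats of both groups were interleaved. The difference of 0.15 ± 0.12 (SE; limma, adjusted p = 0.713) was 0.05 without that rat, and 0.03 after normexp background correction and scaling to the 75th percentile.

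The insulin receptor gene Insr was read differently by its probes. A_64_P085396 measured -3.54, -3.42, -3.42, -3.42 and -3.44 in ADBR3 overexpressing rats 1, 3, 5, 6 and 7, and -3.42, -3.59, -3.37 and -3.47 in WT rats 1, 3, 4 and 6. This was the steadiest of the 14 probes, with a within-group SD of 0.073, at percentile 16.3 of all probes tested, and the difference of 0.02 ± 0.06 (SE; limma, adjusted p = 0.952) had a 95% interval of 0.924-fold to 1.11-fold. A_64_P118402, well above background on 6 of 7 ADBR3 overexpressing and 4 of 6 WT arrays, measured -4.46, -4.49, -4.32, -2.65 and -4.33, against -4.84, -4.25, -4.07 and -4.67. Rat 6 of the ADBR3 overexpressing group stood 1.67 above the next of its group there, and at the other probe it lay close to 3 others of its group. With rat 6 the difference of A_64_P118402 was 0.41 ± 0.38 (SE; limma, adjusted p = 0.749), and without it 0.06. Each Insr probe has 1 spot per array, so no second spot checks that value.

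The adaptor genes Irs1 and Irs2, which encode the insulin receptor substrates, varied between rats without separating the groups. For Irs1, A_44_P431109 was well above background on 7 of 7 ADBR3 overexpressing and 4 of 6 WT arrays, and A_64_P149129 on 5 of 7 and 3 of 6. A_44_P431109 measured -4.39, -4.67, -4.72, -4.26 and -4.17 in ADBR3 overexpressing rats 1, 3, 5, 6 and 7, against -4.69, -4.36, -4.70 and -4.42 in WT rats 1, 3, 4 and 6. A_64_P149129 gave -5.02, -4.85, -4.54, -4.79 and -5.00, against -5.08, -4.72, -5.12 and -5.24 in the same order. Rat 5 of the ADBR3 overexpressing group was the lowest of the 9 at the first probe and the highest at the second. The differences were 0.10 ± 0.13 and 0.20 ± 0.13 (SE; limma, adjusted p = 0.833 and 0.636), and normexp background correction before scaling to the 75th percentile gave -0.018 and 0.0055. With normexp and quantile normalization they were 0.053 and 0.073, and with the authors' values -0.018 and 0.027.

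Irs2 was well above background on all 13 arrays and had its widest spread within the WT group. Its levels were -1.45, -1.84, -1.29, -1.46 and -1.39 in ADBR3 overexpressing rats 1, 3, 5, 6 and 7, and -1.81, -1.78, -1.36 and -0.97 in WT rats 1, 3, 4 and 6. The highest rat of all 9 was WT rat 6, and rats at about -1.8 occurred in both groups. The means were -1.49 ± 0.21 (SD, n = 5) in ADBR3 overexpressing and -1.48 ± 0.40 (SD, n = 4) in WT rats, and the difference of -0.0054 ± 0.18 (SE; limma, adjusted p = 0.996) had a 95% interval of 0.747-fold to 1.33-fold. Its direction changed with the scaling, to 0.036 with median scaling.

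**Figure D2:**
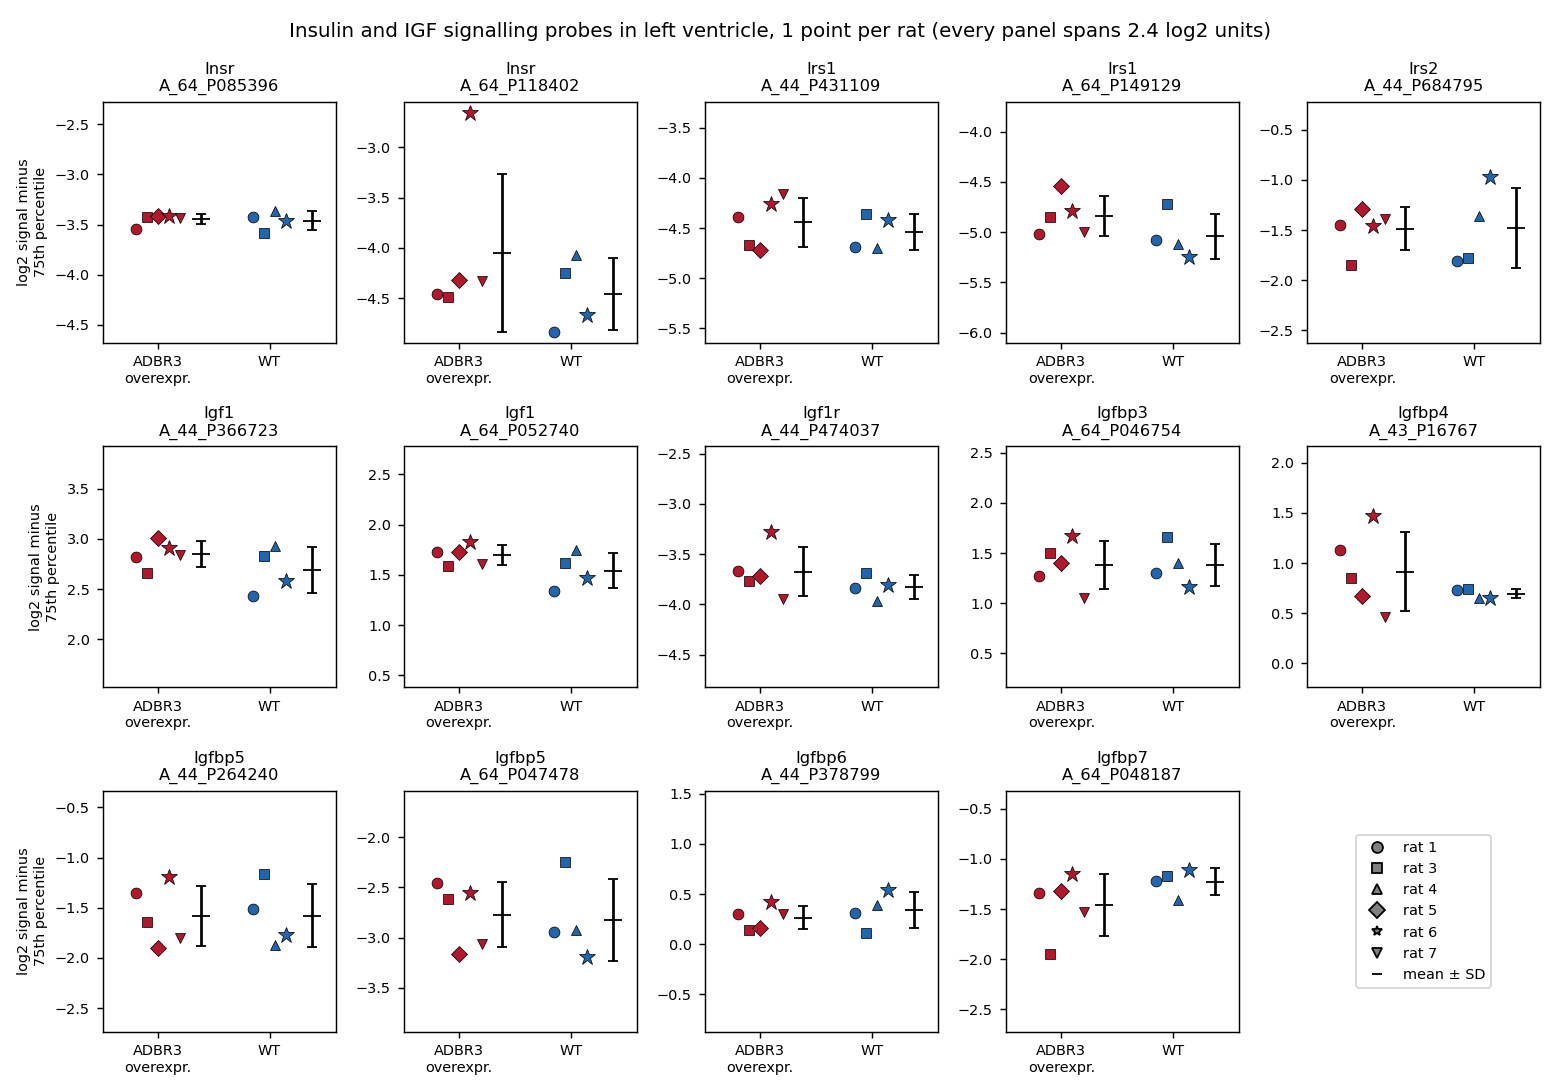
Levels of the 14 probes (vertical axis, log2 signal less the 75th percentile of the array) in 5 ADBR3 overexpressing rats (red, left) and 4 WT rats (blue, right), 1 symbol per rat, with mean and SD as black bars. The groups overlap in every panel, and ADBR3 overexpressing rat 6 (red star) stands apart at Insr A_64_P118402, at -2.65.

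Among the binding proteins, Igfbp4 had the most unequal spread between the groups. IGFBP-4 is known as an inhibitor of IGF action that the protease PAPP-A cleaves. Its probe A_43_P16767 measured 1.13, 0.85, 0.67, 1.46 and 0.46 in ADBR3 overexpressing rats 1, 3, 5, 6 and 7, against 0.73, 0.74, 0.65 and 0.65 in WT rats 1, 3, 4 and 6. ADBR3 overexpressing rats 1, 3 and 6 lay above all WT rats and rat 7 below them. The means were 0.92 ± 0.39 (SD, n = 5) in ADBR3 overexpressing and 0.70 ± 0.049 (SD, n = 4) in WT rats, and they differed by 0.22 ± 0.18 (SE; limma, adjusted p = 0.714), or by 0.08 without ADBR3 overexpressing rat 6. The narrow WT range of 0.09 is smaller than the 0.29 between both labelings of WT rat 1, at 0.59 and 0.88, and Igfbp4 has 1 spot per array.

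Fibroblast markers were also highest in ADBR3 overexpressing rats 1 and 6. Over 10 of 10 listed genes their mean was 1.23, 0.96, 0.92, 1.16 and 0.93 in ADBR3 overexpressing rats 1, 3, 5, 6 and 7, against 0.83, 1.07, 0.94 and 0.87 in WT rats 1, 3, 4 and 6. All 10 were higher on average in the ADBR3 overexpressing group and 0 passed the test. Rat 6 of that group also had the highest level of atrial markers (4 of 5 listed genes tested), 6.23 against 4.03 to 5.14 in the other ADBR3 overexpressing rats and 4.03 to 5.16 in WT rats. Its smooth muscle and pericyte markers (8 of 8) were at 0.56, against 0.13 to 0.33 in the others of its group and 0.16 to 0.31 in WT rats. Rat 6 was the highest of all 9 for adipocyte markers too (3 of 6), at 0.36 against -3.15 to -0.76 in the others of its group and -2.37 to -0.95 in WT rats. For mesothelial markers (3 of 4) it was at -1.53, against -3.89 to -3.02 in the others of its group and -2.59 to -2.09 in WT rats. Those 3 genes were lower on average in the ADBR3 overexpressing group, and 0 passed the test. Rat 6 was not the highest of the 9 for the remaining lists. These were cardiomyocyte, endothelial, macrophage, lymphocyte, blood cell, and nerve and Schwann cell markers. The part of these markers in the levels of Igfbp4 and Igf1r was not tested. In whole tissue, fewer cells of a type and less RNA per cell cannot be told apart.

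Igfbp3, which encodes the main carrier of IGF-1 in blood, did not differ beyond its spread. A_64_P046754 measured 1.27, 1.5, 1.41, 1.67 and 1.05 in ADBR3 overexpressing rats 1, 3, 5, 6 and 7, and 1.30, 1.66, 1.40 and 1.16 in WT rats 1, 3, 4 and 6. The groups covered almost the same range. The difference was 0.0024 ± 0.14 (SE; limma, adjusted p = 0.998; 95% interval 0.808-fold to 1.24-fold), with a changed direction under quantile normalization, at -0.016.

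Igfbp5, which encodes a binding protein that attaches to extracellular matrix, varied more between rats than between groups. A_44_P264240 gave -1.36, -1.64, -1.90, -1.19 and -1.81 in ADBR3 overexpressing rats 1, 3, 5, 6 and 7, against -1.51, -1.17, -1.87 and -1.77 in WT rats 1, 3, 4 and 6. At A_64_P047478 the levels were -2.46, -2.61, -3.17, -2.55 and -3.07, against -2.95, -2.24, -2.93 and -3.19. WT rat 3 was the highest of the 9 at both probes, and the groups overlapped over most of their range. A_64_P047478 had a within-group SD of 0.36, at percentile 90.4 of all probes tested, and A_44_P264240 one of 0.31, at percentile 86.1. The differences were -0.00058 ± 0.18 at A_44_P264240 and 0.05 ± 0.22 at A_64_P047478 (SE; limma, adjusted p = 1.000 and 0.954), and the first turned positive with median scaling (0.041) and quantile normalization (0.013).

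Igfbp6, whose protein prefers IGF-2 over IGF-1, measured 0.30, 0.14, 0.16, 0.42 and 0.30 in ADBR3 overexpressing rats 1, 3, 5, 6 and 7, and 0.31, 0.12, 0.39 and 0.54 in WT rats 1, 3, 4 and 6. WT rat 6 was the highest and WT rat 3 the lowest, so the WT range enclosed the other group. The difference was -0.08 ± 0.09 (SE; limma, adjusted p = 0.815), or -0.24 blocked on slide (adjusted p = 0.927), -0.0088 without WT rat 6 and -0.15 without WT rat 3.

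Igfbp7 encodes a secreted protein of vessels that binds IGFs only weakly. Its levels were -1.34, -1.95, -1.32, -1.15 and -1.53 in ADBR3 overexpressing rats 1, 3, 5, 6 and 7, and -1.22, -1.17, -1.41 and -1.11 in WT rats 1, 3, 4 and 6. ADBR3 overexpressing rats 3 and 7 lay below all WT rats, and rats 1, 5 and 6 lay within the WT range. At -0.23 ± 0.15 (SE; limma, adjusted p = 0.639) this was the most negative difference of the 14, and without ADBR3 overexpressing rat 3 it was -0.11. ADBR3 overexpressing heart 4, the repeat hybridization closest to rat 3, gave -1.41 on slide 4. Averaging in the repeat hybridizations gave a difference of -0.17. Labelings 1 and 2 of ADBR3 overexpressing rat 1 gave -1.0 on slide 1 and -1.69 on slide 5, a gap of 0.69 beside a range of 0.80 over the rats of that group. Rat 3 of the same group was also hybridized to slide 5, a slide with no WT array. Blocked on slide, the difference was 0.08 (limma, adjusted p = 0.957), and within slides 1, 3 and 4 it was 0.16, -0.12 and 0.15. Slides 3 and 4 each held 1 WT rat, taken to be the same, WT rat 4. The slide's part in the Igfbp7 difference was not tested beyond these values.

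Levels at both probes of a gene were correlated over the rats for Igf1 and Igfbp5, and no correlation passed the test for Insr and Irs1. Over the 9 rats the Igf1 probes had Pearson r = 0.914 (exact permutation p = 0.000741, Benjamini-Hochberg adjusted p over 4 genes 0.00296) and Spearman rho = 0.783 (exact permutation p = 0.0172, adjusted p 0.0344). Without the 2 rats farthest from the median, r was 0.669. The Igfbp5 probes had r = 0.866 (exact permutation p = 0.0047, adjusted p 0.0094) and rho = 0.783 (exact permutation p = 0.0172, adjusted p 0.0344), with r = 0.768 without the 2 farthest rats. Insr gave r = 0.193 (exact permutation p = 0.581) and rho = 0.333 (exact permutation p = 0.385), and Irs1 r = -0.0723 (exact permutation p = 0.855) and rho = 0.117 (exact permutation p = 0.776). Adjusted over the 4 genes these p were 0.775 and 0.513 for Insr and 0.855 and 0.776 for Irs1, and r without the 2 farthest rats was 0.290 and 0.163. For Insr and Irs1 at least 1 probe of the pair was not well above background on every array, while the Igf1 and Igfbp5 probes were on all 13.

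**Figure D3:**
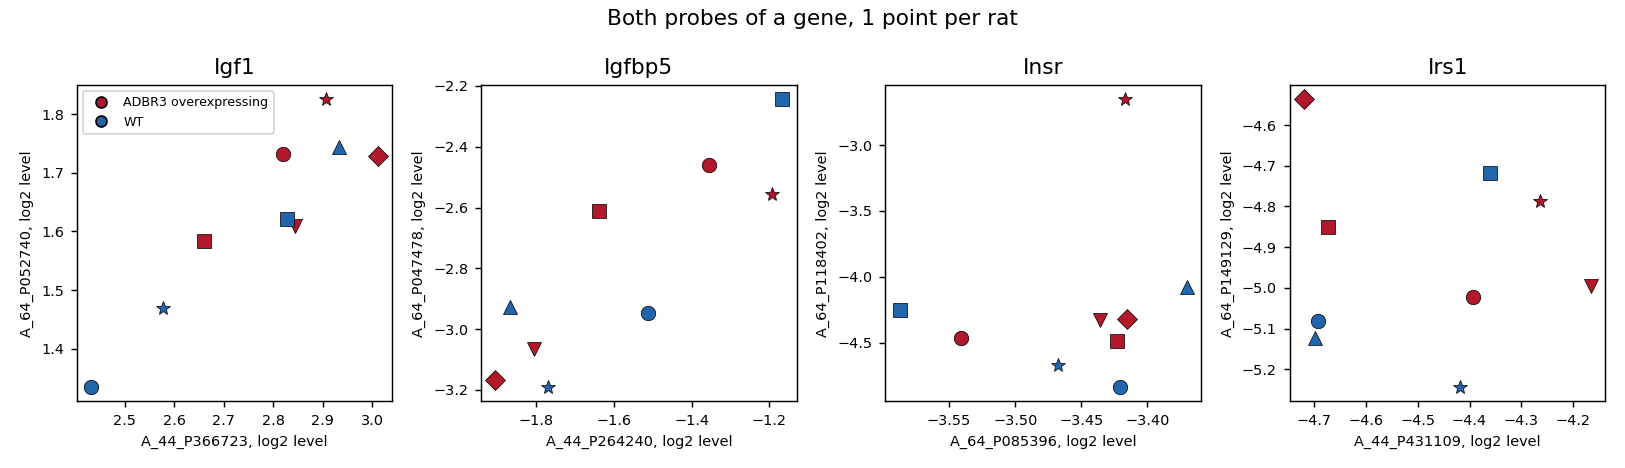
Level of one probe against the other (both axes, log2 signal less the 75th percentile of the array) for Igf1, Igfbp5, Insr and Irs1 in 5 ADBR3 overexpressing rats (red) and 4 WT rats (blue), 1 symbol per rat as in the plot of levels. Points follow a rising line for Igf1 (r = 0.914) and Igfbp5 (r = 0.866), and do not for Insr (r = 0.193) and Irs1 (r = -0.0723).

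Of the 45 pairs of different member genes, each taken by its brightest probe, none (0 of 45) had a correlation over the 9 rats that passed after adjustment, and 5 had an unadjusted exact permutation p under 0.05. Igf1r and Igfbp4 came closest, with r = 0.896 (exact permutation p = 0.00197, Benjamini-Hochberg adjusted p over 45 pairs 0.0885) and rho = 0.817 (exact permutation p = 0.0108, adjusted p 0.485). Without the 2 rats farthest from the median of Igf1r, r was 0.741. ADBR3 overexpressing rat 6 was the highest of the 9 rats for 3 of the 10 genes, Igf1r, Igfbp3 and Igfbp4, and WT rat 6 was the highest for 3 others, Irs2, Igfbp6 and Igfbp7. All genes of a rat share its array and scaling, and some rats share a slide, so these values describe these arrays.

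Repeat labelings give the spread between arrays of 1 rat. Those of ADBR3 overexpressing rat 1 lay on slides 1 and 5, scanned on different days. Both of WT rat 1 lay on slide 1, scanned on the same day. Both labelings of ADBR3 overexpressing rat 1 differed by 0.04 (Igf1r) to 0.69 (Igfbp7) over the 14 probes, and both of WT rat 1 by 0.0099 (Insr A_64_P085396) to 0.70 (Insr A_64_P118402). For Igfbp5 A_44_P264240 these gaps were 0.09 and 0.02, beside 0.71 and 0.70 for the range over ADBR3 overexpressing and WT rats. For Irs1 A_64_P149129 they were 0.13 and 0.51, beside ranges of 0.49 and 0.52. The range over rats was several times both gaps for that Igfbp5 probe, whereas the gap of WT rat 1 nearly equalled the WT range for the Irs1 probe. WT heart 2, the array with the lowest share of spots well above background (55.2%), missed detection at Insr A_64_P118402, both Irs1 probes and Igf1r. The gaps of 0.70 and 0.51, and those of 0.27 at Irs1 A_44_P431109 and 0.32 at Igf1r, therefore include a value near background. At Igf1r that gap exceeded the WT range of 0.29.

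The rest of the pathway was read through a list of 64 genes that are not members, of which 62 were on the array with 79 probes and 48 were tested with 62 probes. None passed (0 of 62 by limma, 0.00569% of all probes tested), and the smallest adjusted p was 0.327. At an unadjusted p under 0.05 there were 4 probes higher and 2 lower in ADBR3 overexpressing rats, 9.68% of the list beside 9.2% of all probes tested. The median difference was 0.017, with 35 probes above 0 and 27 below. In 4 of the 62 probes the groups did not overlap, beside 3.44% of all probes tested.

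Among ligands and receptors, 2 probes were above 0 and 4 below. The probe that the files name Ins1, after one of the rat's insulin genes, was well above background on 7 of 7 ADBR3 overexpressing and 6 of 6 WT arrays. Insulin is known as a product of pancreatic beta cells, and whether the probe reads Ins1 transcript in ventricle was not tested. It gave -2.85, -2.79, -2.98, -2.94 and -2.83 in ADBR3 overexpressing rats 1, 3, 5, 6 and 7, and -2.66, -2.69, -2.70 and -2.61 in WT rats 1, 3, 4 and 6. Every ADBR3 overexpressing rat lay below every WT rat, at a difference of -0.21 ± 0.05 (SE; limma, adjusted p = 0.327, unadjusted p = 0.00358). With normexp and quantile normalization the difference was -0.11. The Ins2 probe was not well above background in enough rats to be tested. Igf2r, the gene of a receptor that clears IGF-2, gave 3.64, 3.64, 3.73, 3.70 and 3.65 in ADBR3 overexpressing rats, against 3.43, 3.52, 3.61 and 3.58 in WT rats. These groups did not overlap either, and the difference was 0.13 ± 0.05 (SE; limma, adjusted p = 0.512, unadjusted p = 0.0301).

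Of the phosphatidylinositol 3-kinase subunits and lipid phosphatases, 7 probes were above 0 and 4 below. The phosphoinositide phosphatase gene Inpp5k gave -3.77, -3.70, -3.77, -3.85 and -3.70 in ADBR3 overexpressing rats, against -4.09, -4.05, -3.87 and -3.87 in WT rats (difference 0.21, limma, adjusted p = 0.404). All 5 ADBR3 overexpressing rats were above all 4 WT rats, though by a narrow gap to WT rats 4 and 6. The difference was 0.021 with normexp and the 75th percentile, 0.086 with normexp and quantile normalization and 0.10 with the authors' values. Of the regulatory subunit genes, Pik3r1 differed by 0.04, Pik3r2 by 0.21 and Pik3r3 by -0.56, and none passed the test (for Pik3r2 and Pik3r3, limma, adjusted p = 0.536 and 0.525). For Pik3r3, WT rat 4 at -2.54 stood above all the rest, and without it the difference was -0.30.

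For AKT and mTOR kinases and their regulators, 11 probes were above 0 and 3 below, with a median difference of 0.037. Tsc2, which encodes an inhibitor of mTOR signalling, measured 0.84, 0.80, 0.92, 0.89 and 0.87 in ADBR3 overexpressing rats and 0.80, 0.69, 0.72 and 0.78 in WT rats at A_64_P148338, where the groups touched at 0.80 without overlapping. Its difference was 0.12 at A_64_P148338 and 0.10 at A_64_P024252 (limma, adjusted p = 0.525 and 0.556). Receptor adaptors, 7 genes read by 11 probes, had 2 probes above 0 and 9 below, where 46.5% of all probes tested were above 0, with a median of -0.084 and no probe at an unadjusted p under 0.05 (0 of 11). Their extremes were Grb2 A_64_P001804 at 0.05, an adaptor to RAS, and Sh2b2 at -0.24, an adaptor of the insulin receptor (limma, adjusted p = 0.791 and 0.740). Sh2b2 was well above background on 7 of 7 ADBR3 overexpressing and 5 of 6 WT arrays, and WT rat 4 at -2.55 stood above all other rats. Its difference was -0.056 with the repeat hybridizations averaged in and -0.013 blocked on scan day.

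Binding proteins outside the 10 genes and their regulators had 4 probes tested, between Igfbp1 at -0.13 and the stanniocalcin gene Stc2, known as a PAPP-A inhibitor, at 0.14 (limma, adjusted p = 0.812 and 0.649). FOXO factors and negative regulators ranged between Trib3, an AKT-binding pseudokinase, at -0.20 and Foxo4 A_64_P085082 at 0.36 (limma, adjusted p = 0.548 and 0.683). Trib3 was well above background on 7 of 7 ADBR3 overexpressing and 4 of 6 WT arrays, and that Foxo4 probe on 6 of 7 and 3 of 6. With normexp and the 75th percentile their differences were -0.10 and 0.049. Foxo4 A_42_P777329, well above background on 7 of 7 and 6 of 6 arrays, differed by 0.14. Transcripts linked to FOXO ranged between the pyruvate dehydrogenase kinase gene Pdk4 at -0.12 and the transcription factor gene Klf15 at 0.28 (limma, adjusted p = 0.888 and 0.547). None of these 3 groups held a probe at an unadjusted p under 0.05 (0 of 4, 0 of 11 and 0 of 5 probes).

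**Figure D4:**
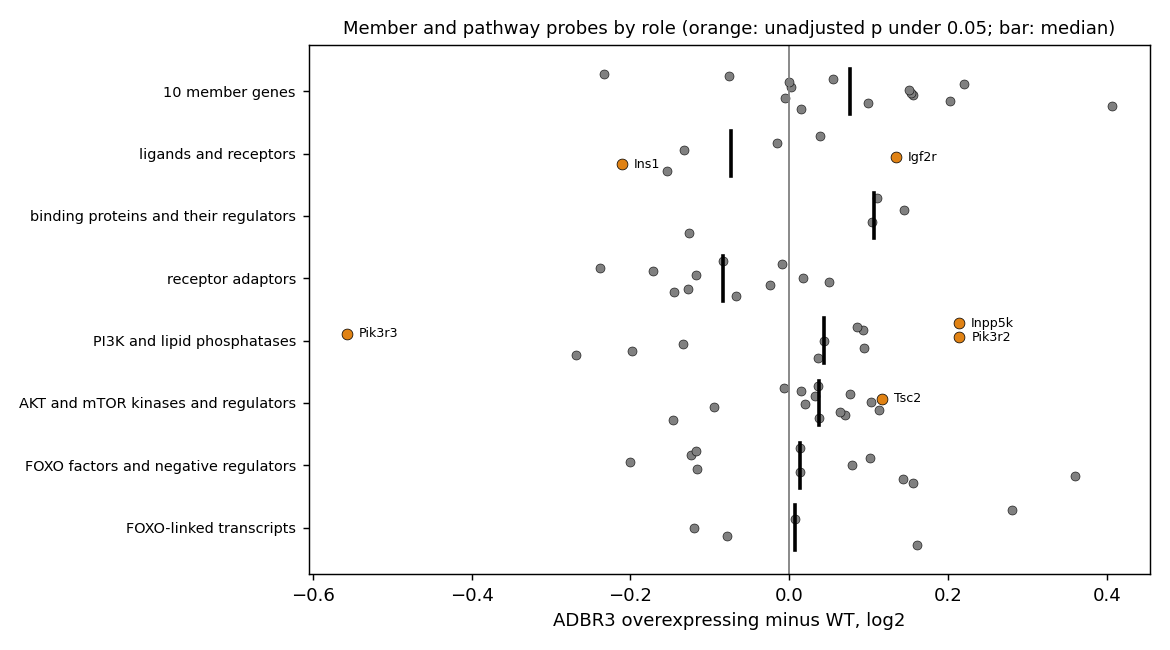
Difference between ADBR3 overexpressing and WT rats on the log2 scale (horizontal axis) for the 14 member probes (top row) and 62 other pathway probes by role, 1 point per probe, with black bars for medians and orange for an unadjusted p under 0.05. Orange points are Ins1, Igf2r, Inpp5k, Pik3r2, Pik3r3 and Tsc2, and none is in the top row.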

How the data were processed

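The authors' scanner files hold spot intensity from Agilent Feature Extraction 10.7.1.1 with spatial and multiplicative detrending, per the file headers. Values in the deposited series matrix are on a natural log scale, found by setting them against the scanner values (correlations 0.99884 to 0.99989 with ln of the median signal, column medians 5.695 to 5.730). How these were scaled across arrays is unknown, and they served as an alternative.

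Here, log2 processed signal minus the array's 75th percentile was averaged over the spots of a probe, without outlier spots where others were left. Detection of a probe on an array meant that at least 0.5 of its spots were well above background. Repeat labelings were averaged to 1 value per rat. The 17587 probes detected in 4 or more of 9 rats were fitted with limma 3.58.1 in R 4.3.3, each probe apart, on group alone, and p-values were adjusted over all of them (Benjamini-Hochberg, 0.05). Single correlations used exact two-sided permutation over all 362880 pairings. The fit was tested on simulated data. Processing and plots used data.table (version 1.17.8), Python 3.11.15, pandas 2.3.3, numpy 2.4.6 and matplotlib 3.10.9.

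The members, the pathway list, the markers and the tests were chosen with earlier results of these data known. Genes named are all 10 members with every probe. Of the pathway list they are those past the threshold, up to 6 per direction with the smallest unadjusted p under 0.05, and both extremes of roles without such a gene. Ins2 and Pik3r1 are named outside this rule, beside related genes. The number of rats limits the precision. Heart numbers 1, 3 and 6 occur in both groups. Deviations of rats with the same number correlated at 0.115, 0.0352 and 0.116, and those of rats with different numbers at -0.123 to 0.0388. The labels name no pairs, so the main fit did not take the numbers as pairs. A fit with the number as a block is given below. The arrays lay on 5 slides scanned on 2 days.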

Additional observations from a re-analysis of the deposited data

Results flagged for a closer look

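Of 62 groups of rats examined over the named probes, 2 held a rat far from the rest. That is no larger a share than the about 1 in 20 that chance gives. At Insr A_64_P118402, ADBR3 overexpressing rat 6 measured -2.653, and the next of its group -4.323, a gap of 0.911 of the group's range. The probe has 1 spot per array. At Insr A_64_P085396, ADBR3 overexpressing rat 1 measured -3.541 and the next -3.436, a gap of 0.838 of the range. That rat's labelings differed by 0.26 at the same probe, more than the range of 0.13 over its group.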

How the results depend on the processing

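Under all 24 alternatives, 0 of the member probes and 0 of the pathway probes passed the threshold by limma. At an unadjusted p under 0.05 the exceptions among members were Igfbp4 in rats 1, 3 and 6 (0.44), Irs1 A_64_P149129 without WT rat 3 (0.31, adjusted p = 0.547) and Igf1 A_64_P052740 without WT rat 4 (0.22, adjusted p = 0.441). Of all probes, 1 passed in the report, 2 with normexp and quantile normalization, 6 with trended and robust variance, 0 blocked on slide, 2 blocked on scan day, and 0 to 14 with 1 rat left out (14 without ADBR3 overexpressing rat 3). The median difference of the member probes was -0.0028 with normexp and the 75th percentile, and 0.12 with quantile normalization. The median difference of the pathway probes was 0.058 with median scaling, -0.0090 with normexp and the 75th percentile, and -0.010 to 0.034 with 1 rat left out. Averaging in the repeat hybridizations gave 1 pair of members past adjustment in place of 0.

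Some directions turned, those of Igfbp7, Igfbp1 and Pdk4 when blocked on slide among them. With median scaling, Irs2 was 0.036, Igfbp5 A_44_P264240 0.041 and Grb2 A_43_P15304 0.017. With quantile normalization, Irs2 was 5.5e-05, Igfbp3 -0.016 and Igfbp5 A_44_P264240 0.013. With normexp and the 75th percentile, Insr A_64_P085396 was -0.015, Irs1 A_44_P431109 -0.018 and Igfbp3 -0.011. With normexp and quantile normalization, Irs2 was 0.00095, Igfbp3 -0.031 and Igfbp5 A_44_P264240 0.0098. With the authors' values, Irs1 A_44_P431109 was -0.018, Igfbp3 -0.027 and Grb2 A_43_P15304 0.0032. Averaging a gene's probes gave 0.027 for Igfbp5, and averaging in repeat hybridizations 0.0013 for Irs2. Blocked on slide, Insr A_64_P085396 was -0.064, Igfbp5 A_44_P264240 0.14, Igfbp7 0.082, Igfbp1 0.046 and Pdk4 0.16. Blocked on scan day, Irs2 was 0.0035 and Igfbp5 A_44_P264240 0.037. The cause was not tested.

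With 1 rat left out, values ran between -0.027 and 0.046 for Insr A_64_P085396, -0.12 and 0.17 for Irs2, -0.071 and 0.095 for Igfbp3, -0.097 and 0.14 for Igfbp5 A_44_P264240, -0.066 and 0.25 for Igfbp5 A_64_P047478, -0.26 and 0.00044 for Igfbp1, and -0.28 and 0.080 for Pdk4.

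Rats 1, 3 and 6 share only a number between the groups. A fit on these with the replicate number as a block gave 0 probes past the threshold over all probes (1585 at an unadjusted p under 0.05), and without the replicate block 0 (1453). In both, Igfbp5 A_44_P264240 was 0.087 and Grb2 A_43_P15304 0.035. Signal near background limits Irs1, Insr A_64_P118402, Igf1r, Foxo4 A_64_P085082, Trib3, Inpp5k and Sh2b2, which missed detection on at least 1 array.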

Other observations

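Repeat hybridizations entered only the values within slides, the fits blocked on slide or on scan day, and the alternative that averaged them in. ADBR3 overexpressing heart 4 measured 2.61 and 1.44 at Igf1 A_44_P366723 and A_64_P052740, below all 5 ADBR3 overexpressing rats at both probes, and 0.70 at Igfbp4 and -1.41 at Igfbp7, within the range of that group. WT heart 5 measured 2.87 and 1.74 at the Igf1 probes, within the range of the WT rats, and 0.53 at Igfbp4 and -1.44 at Igfbp7, below all 4 WT rats. Over 14683 probes, heart 4 lay closest to heart 3 of its group (SD of the log2 difference 0.190), and WT heart 5 lay closest to WT heart 4 (0.1465).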
